A study of Glycine max with 54 samples.

Results

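Mock leaves of the soybean genotype labelled P746 were compared between 96 and 48 h after incubation (HAI). The 6 libraries, 3 replicates at each time point, were chosen by their labels from the 54 libraries of the series. Genes were limited to those whose identifiers place them on chromosomes 1 to 13, which are 32958 of 48764 annotated genes. Of these, 30098 had a count in at least 1 of the 6 libraries, and 23170 had enough counts to be tested.

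The series holds RNA-seq of 3 soybean genotypes, the aphid-susceptible Dongnong47 and the resistant P203 and P746, each with and without soybean aphids at 24, 48 and 96 HAI. Per the study's methods, an area of the first trifoliolate leaf of each seedling was caged, infested leaflets received 6 aphids each, and mock leaves carried the same cage with no aphid. All plants were kept in one chamber regime of light and temperature. The 48 and 96 HAI mock leaves therefore share genotype label, cage and growth conditions and differ in time. Leaf age, time under the cage and the day of harvest cannot be told apart in this comparison, and the hour of harvest is not given in the sources used here. In these bulk samples, fewer cells of a type and less RNA per cell cannot be told apart either.

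Jasmonate (JA) is made from membrane fatty acids in the plastid and the peroxisome, and JAZ repressor proteins hold back its response until the hormone removes them. Salicylate (SA) is the other main defence hormone, and WRKY proteins are transcription factors known for their part in both responses. The circadian clock of plants rests on a loop in which MYB-related proteins of the LHY and CCA1 kind, named from Arabidopsis, rise around dawn, and CONSTANS-like and other B-box proteins are among the genes with daily rhythms.

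The libraries were checked before the results were read. A first check used 68 genes on chromosomes 1 to 13 that separated the 24 HAI mock libraries of P203 from those of P746 by at least 2 on the log2 scale. At these markers the 48 HAI libraries were P203-like at 94.1%, 95.6% and 89.7%, and the 96 HAI libraries at 95.6%, 94.1% and 95.6%. The 24 HAI mock libraries labelled P746 are at 0% by construction, so that the libraries of both later time points go against the label, and P746 is used below as the name of the label only. The 6 libraries stood on the same side of the markers. Of the 54 markers that could be tested, 15 were among the calls between times, where 16.4% of all tested genes were called. Some markers thus also changed with time. A second check used the names of the loci that StringTie assembled. The 48 and 96 HAI mock libraries shared a median of 0.0164 of these names (shared names over all names of a pair), against 0.614 within the 48 HAI group and 0.713 within the 96 HAI group. The 48 HAI libraries shared 0.489 to 0.577 with the other 48 HAI groups and the infested 96 HAI groups (medians), and the 96 HAI libraries shared 0.698 with the mock 96 HAI group of P203 and 0.630 with that of Dongnong47. Time and this set of libraries cannot be told apart in mock leaves of any genotype. Estimated counts per library summed to 17790337 to 20297663, with 14436401 to 17121981 on chromosomes 1 to 13. Replicates differed by more than counting noise, with a chi-square per gene of at least 20.3. Abundant genes without a value made up 7.69% to 48.2% per library on chromosomes 14 to 20 and at most 0.159% on chromosomes 1 to 13. Leaf, phloem and root marker genes could not be checked by name, since identifiers were paired with names only through the study's own gene lists.

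Between 48 and 96 HAI, a large share of the leaf transcriptome of mock plants moved. A gene was called where the edgeR quasi-likelihood test gave a Benjamini-Hochberg adjusted p under 0.05 and the log2 fold change was at least 1 in size. Of the 23170 tested genes, 3799 were called (16.4%), 2004 higher (8.65%) and 1795 lower (7.75%) at 96 HAI. The median size of the change was 1.83 on the log2 scale among the higher and 1.75 among the lower genes, and 640 genes changed by at least 3. The 3 libraries of 96 HAI lay entirely above or below those of 48 HAI for 3795 of the called genes, against 46.7% of all tested genes (23.1% above and 23.6% below). For 33 genes called higher there was no count in any 48 HAI library, and for 27 called lower none in any 96 HAI library.

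The count of calls rested on single libraries. It was 1331 without 96 HAI replicate 3, 1804 without 48 HAI replicate 1 and 2436 without 48 HAI replicate 2. Scaling by total counts instead of TMM raised the median change of the well-covered genes from -0.03 to 0.15 on the log2 scale, and 2578 of 3897 calls were then higher (66.2%, against 52.8%). All changes given here are relative to the TMM scale.

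**Figure D1:**
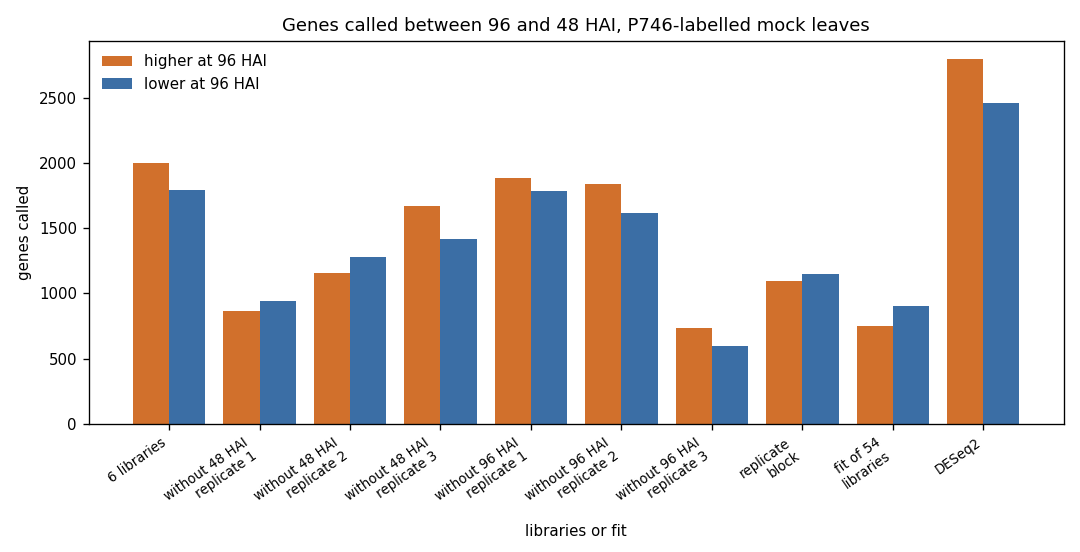
Number of genes called between 96 and 48 HAI (vertical axis) in the 6 libraries labelled P746, in the same fit without each library in turn, and in 3 other fits (horizontal axis); orange bars are genes higher and blue bars genes lower at 96 HAI. The 6 libraries gave 2004 higher and 1795 lower genes, and the smallest bars, 733 and 598, are those without 96 HAI replicate 3.

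More JA genes were called lower than higher at 96 HAI. Of 35 genes of the study's JA list on chromosomes 1 to 13, 33 were tested, 12 were called lower (36.4%, against 7.75% of all tested genes) and 1 higher (3.03%, against 8.65%). The median log2 change was -0.83, against 0.01 over all tested genes. The study chose this list with these libraries among its data, so that the list is not independent evidence of a direction.

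The lipoxygenases of the LOX1 name, enzymes that add oxygen to polyunsaturated fatty acids, were the group with the most calls. In Arabidopsis LOX1 oxygenates another carbon of the fatty acid than LOX2, the plastid enzyme of the jasmonate route. Of 7 tested LOX1 genes, 4 were called lower (57.1%, against 7.75% of all tested genes) and none higher. The changes of these 4 genes in infested leaves are given below. GLYMA13G42330, the most abundant, had 2028, 2680.3 and 2913 CPM (counts relative to library size, scaled by TMM) in the 48 HAI libraries and 489.7, 413 and 449 in the 96 HAI libraries. Every 48 HAI library was well above every 96 HAI library, and the fold change was -2.50 ± 0.32 on the log2 scale (SE, n = 3 per group, edgeR adjusted p = 0.00519). GLYMA07G00900 had 1549, 2006 and 2741 CPM at 48 HAI and 552, 280.3 and 307 at 96 HAI. Its groups did not overlap either (-2.47 ± 0.42, edgeR adjusted p = 0.0105). GLYMA13G42340, next in identifier to the most abundant LOX1, had 323, 389 and 782 CPM at 48 HAI and 53.2, 33.1 and 41.0 at 96 HAI (-3.55 ± 0.42, edgeR adjusted p = 0.00416). GLYMA07G03910 had 215, 152 and 249.8 CPM at 48 HAI and 35.5, 10.1 and 6.54 at 96 HAI, the largest fall of the list (-3.57 ± 0.66, edgeR adjusted p = 0.0138). Reads of close copies can be split between LOX1 genes by the counting, which leaves the value of each single copy uncertain.

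LOX2 genes went both ways. GLYMA11G13880 was the one JA gene called higher, with 22.7, 25.3 and 28.5 CPM at 48 HAI and 89.4, 53.7 and 66.2 at 96 HAI (1.45 ± 0.23, edgeR adjusted p = 0.00839). GLYMA02G26160 was called lower, from 41.8, 29.7 and 30.5 to 3.53, 17.1 and 6.38 CPM. Its adjusted p of 0.0455 (edgeR, -1.91 ± 0.54) was close to the threshold, and the call was kept in 5 of 14 alternative fits.

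Calls were also found before and after the lipoxygenase step. FAD8, a desaturase that makes the trienoic precursor of JA in Arabidopsis, fell in GLYMA07G18350 from 66.2, 50.3 and 63.5 to 10.6, 24.9 and 13.9 CPM (-1.86 ± 0.33, edgeR adjusted p = 0.0119). Allene oxide synthase (AOS, GLYMA07G21100) fell by 1.24 on the log2 scale. The cyclase AOC4 (GLYMA13G07490), which acts on its product, had a change of -2.40. It went from 209, 166 and 129.6 to 9.14, 54.5 and 32.1 CPM, with a wide spread at 96 HAI and no overlap. The other tested FAD8 gene had a fitted change of 0.17 and the other tested AOC gene of 0.89, and neither was called. Of 5 acyl-CoA oxidase genes, which shorten the side chain in the peroxisome, ACX2 (GLYMA05G31390) fell by 1.52 and ACX5 (GLYMA01G41600) by 1.28. JAR1 (GLYMA07G06370), which in Arabidopsis joins JA to isoleucine, fell by 1.15. All 6 tested JAZ genes had a fitted change below 0, between -2.04 and -0.79, and 1 passed the test, JAZ3 (GLYMA05G34960), which went from 113, 99.5 and 145 to 29.7, 58.9 and 65.1 CPM (-1.22 ± 0.32, edgeR adjusted p = 0.0384). Of 14 alternative fits, 5 kept the call of JAZ3, 7 those of JAR1 and AOC4, 8 that of ACX5 and 10 that of AOS. The lipase DAD1 (GLYMA01G41450) had a change of -0.33, the β-oxidation protein MFP (GLYMA07G37570) of -0.52 and the bHLH gene JIN1 (GLYMA09G33730) of -0.45, none of which passed the test.

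The number of JA genes called lower was 4 without 96 HAI replicate 3, 6 without 48 HAI replicate 1 and 7 without 48 HAI replicate 2. It was 14 with DESeq2, 8 with scaling by total counts, and 2 in a single fit of all 54 libraries, in which the groups shared one estimate of the spread.

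**Figure D2:**
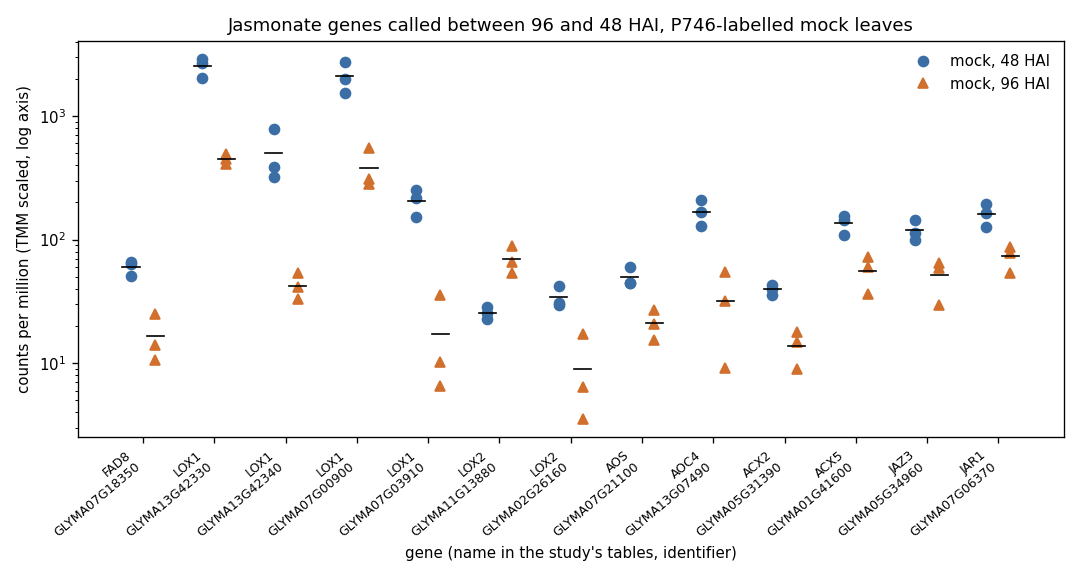
CPM (vertical log axis) of the 13 JA genes called between 96 and 48 HAI (horizontal axis), with circles for the 48 HAI and triangles for the 96 HAI libraries and a bar for each mean. The circles lie above the triangles in 12 genes, and the reverse holds for the LOX2 gene GLYMA11G13880, at 53.7 to 89.4 CPM at 96 HAI.

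SA genes gave a share of calls near that of all genes. Of 18 listed genes 17 were tested, 2 were called lower (11.8%, against 7.75% of all tested genes) and none higher, with a median change of -0.29. This list too was chosen by the study with these libraries in view. PAL1 (GLYMA03G33880), a phenylalanine ammonia-lyase at the entry to phenylpropanoids, had 264, 216 and 130.3 CPM at 48 HAI and 16.9, 35.8 and 15.6 at 96 HAI. All 96 HAI libraries were far below the lowest 48 HAI library (-3.16 ± 0.43, edgeR adjusted p = 0.00633). WRKY33 (GLYMA01G31921), known in Arabidopsis for resistance to fungi, fell from 51.3, 37.4 and 33.4 to 4.22, 11.9 and 8.40 CPM (-2.31 ± 0.38, edgeR adjusted p = 0.00996).

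The core SA genes did not pass the test. ICS1 (GLYMA01G25690), an SA synthesis gene in Arabidopsis, had 5.66, 6.70 and 45.3 CPM at 48 HAI and 45.5, 10.2 and 15.1 at 96 HAI, groups that overlapped through 48 HAI replicate 3. NPR1 (GLYMA02G45260), an SA receptor in Arabidopsis, had 71.4, 65.2 and 58.3 CPM at 48 HAI and 22.2, 43.1 and 32.7 at 96 HAI. Its groups did not overlap, and its change of -0.99 (edgeR adjusted p = 0.0354) missed the fold threshold. The changes of EDS1 (GLYMA06G19920, -0.10), PAD4 (GLYMA04G38691, -0.07), TGA2 (GLYMA03G28320, -0.06), SNI1 (GLYMA13G24121, -0.07), EDS5 (GLYMA11G11970, 0.22) and WRKY70 (GLYMA09G41050, 0.00) were smaller than their SEs, which ran from 0.18 to 0.31. Without 96 HAI replicate 3, 1 SA gene was called.

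The other short lists came from predicted annotations. Callose synthases make the β-glucan that seals sieve plates and wounds, and of 8 listed genes 4 were tested. Their median change was 0.25, with 3 genes fitted above 0 and 1 below. Only the gene below 0 was called, a count too small to set against the share over all tested genes. GLYMA08G16660 fell from 14.01, 11.7 and 10.7 to 3.81, 6.19 and 2.87 CPM (-1.50 ± 0.33, edgeR adjusted p = 0.0223). Catalases break down hydrogen peroxide, and 1 of the 2 tested genes, GLYMA04G01920, fell from 1290.0, 1883 and 1248 to 700.3, 747 and 639 CPM (-1.08 ± 0.30, edgeR adjusted p = 0.0428, kept in 5 of 14 alternative fits).

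Transcription factor genes had calls in both directions, and more of them were lower. Of 630 listed genes 560 were tested, 72 were called higher (12.9%, against 8.65% of all tested genes) and 121 lower (21.6%, against 7.75%), with a median change of -0.49. The study drew up this list from these libraries as well.

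The WRKY family had calls in 1 direction only. Of 55 tested WRKY genes 18 were called lower (32.7%, against 7.75% of all tested genes) and none higher (against 8.65%), with a median of -1.04 and a range of -2.62 to 1.48. The count of lower WRKY genes was 4 without 96 HAI replicate 3, 7 without 48 HAI replicate 1 and 2 in the fit of all 54 libraries. Scaling by total counts gave 13 lower and 1 higher, and DESeq2 26 lower and 1 higher. NAC genes, a plant family with roles in ageing and stress, had 5 lower (17.2%, against 7.75%) and 1 higher (3.45%, against 8.65%) of 29. NAC1 (GLYMA01G06150) fell from 5.66, 6.94 and 7.20 to 0.139, 0.521 and 0.372 CPM (-4.21 ± 0.47, edgeR adjusted p = 0.00391).

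Clock and CONSTANS-like genes changed in both directions, and the libraries of the 2 time points were fully separated in all but 1 of those named. LCL2 (GLYMA03G42260), named in the study's list after the Arabidopsis proteins LHY and CCA1, had 258, 297 and 460.4 CPM at 48 HAI and 29.2, 33.3 and 37.0 at 96 HAI. All 96 HAI libraries were about equal and far below 48 HAI (-3.35 ± 0.29, edgeR adjusted p = 0.00218). Among the other genes listed as MYB_related, GLYMA13G19910 went from 69.3, 51.7 and 95.2 to 3.67, 5.56 and 3.51 CPM (-4.08 ± 0.32, edgeR adjusted p = 0.00189). GLYMA10G05560 went the same way, from 46.8, 31.0 and 99.0 to 4.16, 3.65 and 2.76 CPM (-4.06 ± 0.48). GLYMA01G39040 was low throughout and fell by 3.59. The opposite change was seen in GLYMA12G06406, which rose from 1.10, 0.897 and 2.18 to 16.3, 31.7 and 34.9 CPM (4.34 ± 0.46, edgeR adjusted p = 0.00334). In all, 12 of 34 tested MYB_related genes were lower (35.3%, against 7.75% of all tested genes) and 6 higher (17.6%, against 8.65%).

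The 3 genes of the CO-like family were all called, where 16.4% of all tested genes were called. This family is part of the transcription factor list that the study drew up from these libraries, and 3 genes are few. GLYMA13G33420 fell from 185, 175 and 457 to 15.03, 10.1 and 5.10 CPM (-4.76 ± 0.59, edgeR adjusted p = 0.0048), and GLYMA07G10161 from 381, 317 and 875 to 85.5, 38.8 and 17.2 CPM (-3.48 ± 0.69, edgeR adjusted p = 0.017). In both, 48 HAI replicate 3 had the highest level. GLYMA10G42090 rose from 3.59, 3.71 and 2.18 to 47.03, 53.5 and 48.1 CPM, with little spread at either time (3.96 ± 0.24, edgeR adjusted p = 0.00153). GLYMA08G28370, a gene of the double B-box family that the list calls a CONSTANS protein, fell from 86.2, 96.0 and 183 to 37.5, 21.9 and 25.2 CPM (-2.11 ± 0.36). GLYMA11G13570, listed as a CO-like gene of the C2C2 class, had 118, 154 and 219.7 CPM at 48 HAI and 121, 119 and 153 at 96 HAI, and its groups overlapped (-0.32 ± 0.27, edgeR adjusted p = 0.402).

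B-box genes of the C2C2 class had 8 lower (57.1%, against 7.75% of all tested genes) and 2 higher (14.3%, against 8.65%) among 14 tested. Their median was -1.57. GLYMA11G07930 fell from 62.8, 47.6 and 68.5 to 6.30, 3.36 and 5.53 CPM (-3.56 ± 0.29, edgeR adjusted p = 0.00193). GLYMA06G01140 rose from 0.304, 0.120 and 0.335 to 12.2, 8.86 and 9.62 CPM (5.33 ± 0.42, edgeR adjusted p = 0.00193). The calls of LCL2, GLYMA13G19910, GLYMA10G05560, GLYMA12G06406, GLYMA13G33420, GLYMA10G42090, GLYMA11G07930 and GLYMA06G01140 were kept in all 14 alternative fits. Dof genes of the same class had 6 lower (31.6%, against 7.75%) and 1 higher (5.26%, against 8.65%) of 19.

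**Figure D3:**
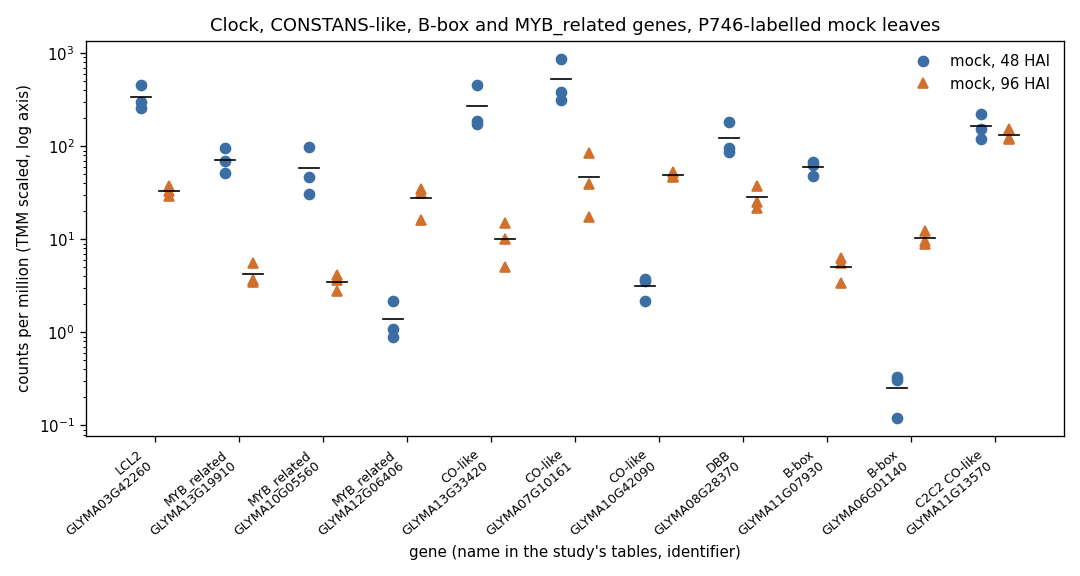
CPM (vertical log axis) of 11 clock, CONSTANS-like, B-box and MYB_related genes (horizontal axis), with circles for the 48 HAI and triangles for the 96 HAI libraries and a bar for each mean. LCL2 lies at 258 to 460.4 CPM at 48 HAI and at 29.2 to 37.0 at 96 HAI, whereas GLYMA12G06406, GLYMA10G42090 and GLYMA06G01140 are higher at 96 HAI and GLYMA11G13570 overlaps.

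Other families had calls on both sides. Of 70 AP2/ERF genes, a family that includes ethylene response factors, 6 were higher (8.57%), a share like the 8.65% of all tested genes, and 10 lower (14.3%, against 7.75%). GLYMA01G43350 rose from 0.853, 0.359 and 0.167 to 11.2, 3.07 and 7.87 CPM (3.94 ± 0.70), and GLYMA11G02140 (3.18) and GLYMA05G22970 (3.19) also rose. GLYMA10G07756 of the same family fell from 6.33, 1.97 and 12.9 to 0, 0.521 and 0.531 CPM (-4.25 ± 1.01). Of 14 alternative fits, 7 kept the call of GLYMA10G07756, 7 that of GLYMA11G02140 and 8 that of GLYMA05G22970. Of 54 bHLH genes, 8 were higher (14.8%, against 8.65%) and 10 lower (18.5%, against 7.75%). GLYMA07G05500 had 3.35, 2.87 and 10.7 CPM at 48 HAI and 127, 25.0 and 51.4 at 96 HAI (3.60 ± 0.76, edgeR adjusted p = 0.0207), and GLYMA05G38450 (4.23) and GLYMA09G33590 (3.27) rose from under 1 CPM.

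The bZIP gene GLYMA12G35650 had 1 count or none in each 48 HAI library and 4.16, 0.579 and 2.60 CPM at 96 HAI. GLYMA12G36060 of the BES1 family, named after a brassinosteroid regulator of Arabidopsis, rose by 3.39 on the log2 scale. Its call was kept in 7 of 14 alternative fits. Both tested SRS genes rose, GLYMA11G21700 from 0.365, 1.20 and 0.837 to 14.3, 9.44 and 15.7 CPM (4.03 ± 0.46, edgeR adjusted p = 0.00397). GLYMA11G21700 also changed by 3.41 in P203 mock leaves and 1.68 in Dongnong47 mock leaves. In infested leaves it changed by -0.10 (labelled P746), -1.20 (P203) and -0.80 (Dongnong47). Its difference between mock and infested leaves labelled P746 did not pass the test (edgeR adjusted p = 0.263).

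Of 7 tested C3H zinc finger genes 4 were lower (57.1%, against 7.75% of all tested genes) and none higher. GLYMA03G02000 fell from 4.45, 2.99 and 3.10 to 0, 0 and 0.159 CPM, and GLYMA07G04721 from 1.71, 1.44 and 4.35 to 0, 0 and 0.0531, which makes their fitted changes of -5.74 and -6.50 imprecise. GLYMA07G04721 also changed by -4.88 in P203 mock leaves and -5.20 in Dongnong47 mock leaves. In infested leaves it changed by -0.37 (labelled P746), 0.06 (P203) and -0.35 (Dongnong47). Its difference between mock and infested leaves labelled P746 did not pass the test (edgeR adjusted p = 0.101). The MYB gene GLYMA12G11330 fell from 10.1, 6.10 and 12.1 to 0, 0.174 and 0.478 CPM (-5.31 ± 0.78, edgeR adjusted p = 0.00747). The NAC gene GLYMA12G35000 went from 81.0, 27.4 and 133 to 0.139, 7.82 and 5.69 CPM, with a wide spread in both groups (-4.12 ± 1.06). Its call was kept in 6 of 14 alternative fits. LBD genes, a family of lateral organ regulators, had 3 lower (33.3%, against 7.75%) and none higher of 9.

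The B3 superfamily had 8 higher (38.1%, against 8.65% of all tested genes) and 5 lower (23.8%, against 7.75%) of 21, and the 8 higher genes were all among its auxin response factors. These 14 tested auxin response factors had 8 higher genes (57.1%, against 8.65%) and 1 lower (7.14%, against 7.75%), with a median of 1.21. The subset was formed after the values were seen, so that its counts are not independent evidence of a direction. Without single libraries the number of higher B3 genes ran down to 3. TCP genes, regulators of leaf growth in Arabidopsis, had 3 higher and 1 lower of 13, and C2H2 genes 3 higher and none lower of 10, counts too small to set against the share over all tested genes.

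**Figure D4:**
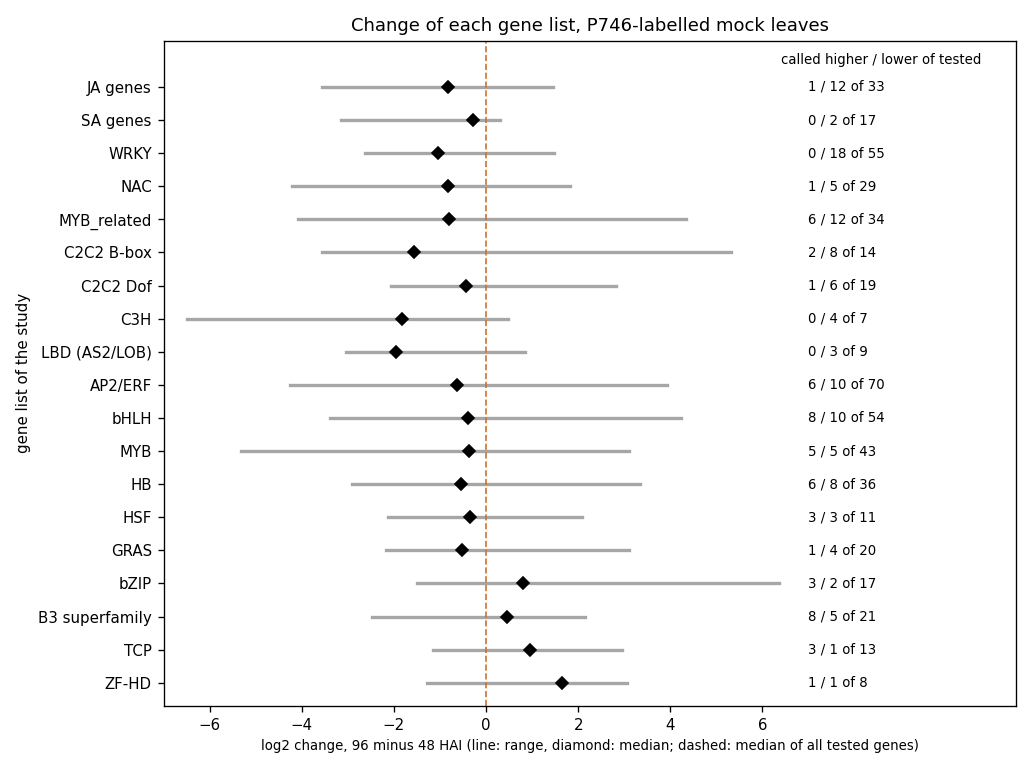
Log2 change from 48 to 96 HAI (horizontal axis) of 19 gene lists (vertical axis), with the range of the tested members as a line and their median as a diamond; the numbers at the right are members called higher, called lower and tested. WRKY (0, 18 and 55) and C2C2 B-box (2, 8 and 14) lie to the left of the median of all tested genes (dashed line), and bZIP, B3 superfamily, TCP and ZF-HD have medians to the right.

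The largest changes were in genes without a name in the lists used. GLYMA08G08800 had 8459, 9189 and 15969 CPM at 48 HAI and 1.59, 0.753 and 0.159 at 96 HAI (-13.74 ± 1.12, edgeR adjusted p = 0.00193). It was among the most abundant transcripts at 48 HAI and nearly absent at 96 HAI. GLYMA09G07281 had 207, 166 and 812 CPM at 48 HAI and no count at 96 HAI, at least 5925-fold lower against a floor of 3 counts over the group (edgeR adjusted p = 0.0059).

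Of the 33 genes called higher with no count at 48 HAI, 11 lay on chromosome 13, which holds 10.2% of all tested genes. Of these 11, 10 lie in the 1 stretch of identifiers described below, so that they do not speak for the chromosome. All 33 passed the filter on counts through the 96 HAI libraries alone. GLYMA13G12160 had no count at 48 HAI and 677, 501 and 96.7 CPM at 96 HAI, at least 6025-fold higher against the same floor. GLYMA13G11860 had no count at 48 HAI and 391, 536 and 133 CPM at 96 HAI, at least 5178-fold higher. In both, 96 HAI replicate 3 was the lowest. Between the identifiers GLYMA13G11810 and GLYMA13G12220, a stretch picked after its values were seen, lie 96 genes, of which 37 were tested, 22 called higher and 1 lower. This stretch took 0.440%, 0.537% and 0.848% of the counts in the 48 HAI libraries and 4.86%, 5.06% and 1.37% in the 96 HAI libraries. In P203 it took 2.21% to 5.82% at 48 HAI and 0.858% to 14.6% at 96 HAI in mock leaves, so that its share also varied widely between replicates. At least 3 of its genes had counts within 10% of another's in these libraries, and reads of such copies may be split by the counting. Without the stretch, a fit added after seeing the data, 3790 genes were called.

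Levels of GLYMA08G08800 and GLYMA13G12160 at 48 and 96 HAI followed the sets of libraries that share assembled loci. The stretch on chromosome 13 did not do so in Dongnong47. It took 0.540% to 2.13% of the counts in mock leaves at 48 HAI and 0.720% to 2.46% at 96 HAI. In infested Dongnong47 at 96 HAI it took 3.07% to 16.7%. On a scale set over all 54 libraries, GLYMA08G08800 lay at 2726 to 21219.5 CPM in each library of 48 HAI and of infested leaves at 96 HAI, and at up to 1.42 CPM in each library of mock leaves at 96 HAI. GLYMA13G12160 lay at 67.1 to 1947 CPM in the 9 mock libraries of 96 HAI and at up to 0.0705 CPM in the infested libraries of 96 HAI and all libraries of 48 HAI. LCL2 (GLYMA03G42260) differed from these, since it was low at 96 HAI also in infested leaves: it had 2.37 to 12.6 CPM in infested P203 and 8.69 to 43.9 CPM in infested Dongnong47, against at least 202.6 CPM in the infested 48 HAI libraries of both. GLYMA12G06406 was likewise at 37.6 to 53.7 CPM in infested P203 at 96 HAI and at up to 0.974 CPM at 48 HAI. In the infested libraries labelled P746 both genes had libraries out of place at both times. The fitted changes there were -0.10 for LCL2 and -0.23 for GLYMA12G06406, and neither was called. LCL2 had 477 CPM in 1 library of 96 HAI and 13.3 CPM in 1 library of 48 HAI, and GLYMA12G06406 had 33.8 CPM in 1 library of 48 HAI and 0.576 CPM in 1 library of 96 HAI.

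**Figure D5:**
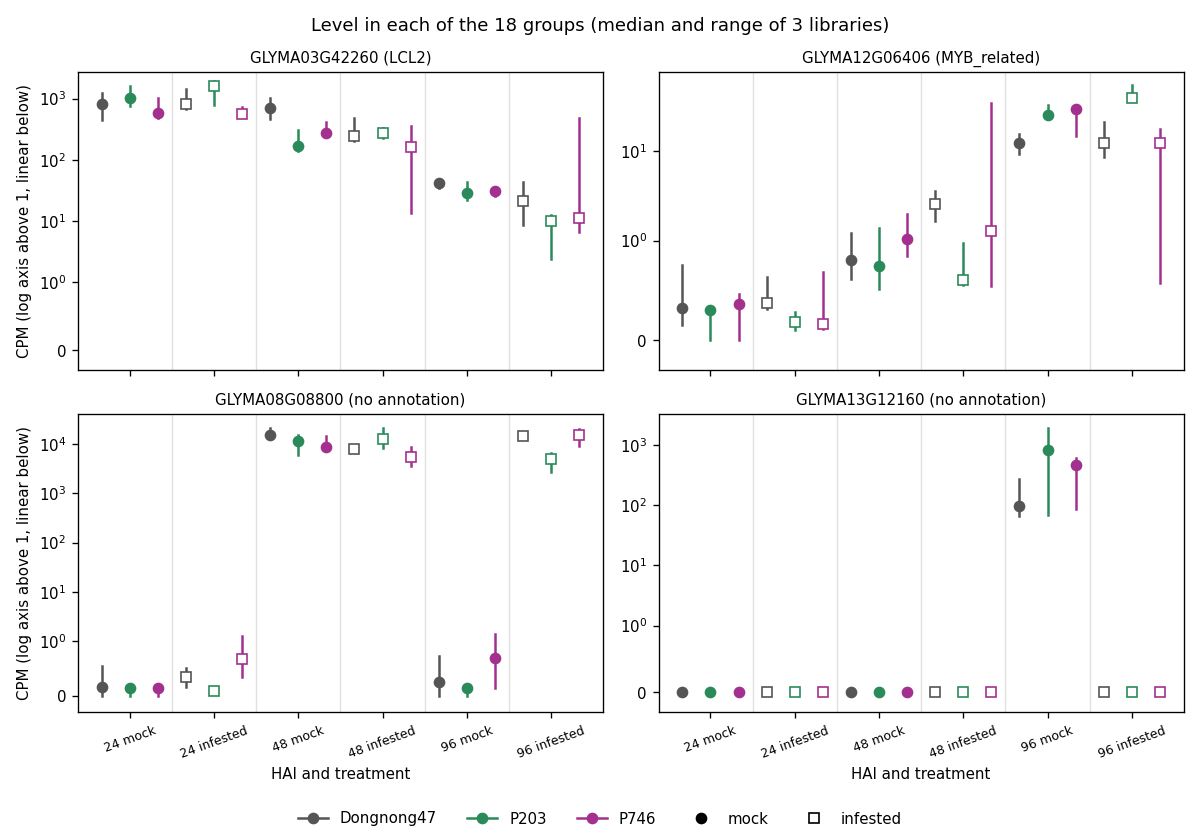
CPM of 4 genes (vertical axis, log above 1 and linear below) in the 18 groups, ordered by HAI and treatment (horizontal axis), with the median as a symbol and the range of 3 libraries as a line; filled circles are mock, open squares infested, and colours are genotypes. GLYMA08G08800 and GLYMA13G12160 switch between groups of libraries, whereas LCL2 falls and GLYMA12G06406 rises with time in mock leaves and, apart from single libraries labelled P746, in infested leaves.

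The same time step was fitted in the mock leaves labelled P203 and Dongnong47, which share no library with the P746 comparison but lie across the same sets of assembled loci. In P203 mock leaves 934 genes were called (4.05%), 426 higher (1.85%) and 508 lower (2.20%). Of the P746 calls that could be tested there, 95.9% of 3691 had the same sign. Calls in common numbered 691, which is 18.2% of the P746 calls and 74.0% of the P203 calls, and none was opposite. The median change in P203 was 1.34 for the genes higher in P746 (1.81 in P746) and -1.29 for those lower (-1.71). The P203 mock libraries of both times were themselves P203-like at 91.2% to 95.6% of the markers, so that both sides of this comparison stood on the same side of the markers. The edgeR interaction test between the labels called no gene (0 of 24237, 1478 at an unadjusted p under 0.05), and DESeq2 called 46. LCL2 had a change of -2.75 in P203 and GLYMA11G07930 one of -3.40, both called.

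In Dongnong47 mock leaves 4505 genes were called (20%), 2389 higher (10.6%) and 2116 lower (9.37%). The share of P746 calls with the same sign there was 82.7% of 3562, and 1489 calls were in common (39.2% of the P746 calls, 33.1% of the Dongnong47 calls), 47 of them opposite. The change differed between the labels in 326 genes (1.35%) by the edgeR interaction test. For 240 of these (0.992%) the change was more negative in the libraries labelled P746, with a median of -1.15 against 2.70 in Dongnong47, and for 86 (0.355%) it was more positive (1.23 against -0.78). Without single libraries the count ran from 0 to 1815.

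For the WRKY, JA and SA lists, but not for callose synthases and catalases, the median changes in P746 and Dongnong47 mock leaves lay on opposite sides of 0. WRKY genes had a median change of -1.04 in P746 mock leaves (0 higher, 18 lower), -0.63 in P203 (none called) and 1.58 in Dongnong47 (15 higher, 0 lower), and the difference from Dongnong47 passed the test for 5 WRKY genes. JA genes had a median of -0.83, -0.68 and 0.38, with 5 higher and 2 lower in Dongnong47, and 2 passed the test of the difference. Within the JA list the LOX1 genes had medians of -2.47 and -0.89 in P746 and Dongnong47, and GLYMA13G42340 had a change of -3.60 in Dongnong47 (edgeR adjusted p = 0.0373). SA genes had medians of -0.29, -0.61 and 1.33, with 5 higher and none lower in Dongnong47, and 1 passed. The FAD8 gene GLYMA07G18350 changed by 2.24 in Dongnong47 (edgeR adjusted p = 0.0341) against -1.86 in the libraries labelled P746, and the difference of -4.07 passed the test (edgeR adjusted p = 0.0417). PAL1 had a difference of -4.96 and NPR1 of -2.29, with edgeR adjusted p of 0.0532 and 0.053. B-box genes had medians of -1.57, -1.07 and -1.84 in P746, P203 and Dongnong47, and LCL2 had a change of -4.23 in Dongnong47.

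Infested leaves give the same time step within one set of assembled loci. In infested leaves labelled P746, no gene was called by edgeR (0%, 1317 genes at an unadjusted p under 0.05). Of these libraries, 1 at 48 HAI was Dongnong47-like at 83.6% of the markers between Dongnong47 and P203, and without it edgeR also called none (1254 at an unadjusted p under 0.05). At 96 HAI, replicates 2 and 3 were also mixed, with 37.3% and 20.9% Dongnong47-like markers against 2.99% in replicate 1. Both were kept in this fit and in the main test of the difference from mock leaves below. The genes called in mock leaves had the same sign there in 71.3% of 3536, with a median of 0.43 for the higher and -0.28 for the lower genes. In infested P203, 4 of 22604 genes were called (0.0177%), and 66.1% of the higher and 71.4% of the lower genes had the same sign. In infested Dongnong47, 108 genes were called (0.483%), 24 of them among the genes higher and 22 among those lower in P746 mock leaves, with 3 opposite. In this group 96 HAI replicate 1 goes against its label, with 7.46% Dongnong47-like markers against 92.5% and 88.1% in the other libraries of 96 HAI. Without it, a fit added after seeing the data, no gene was called (4204 at an unadjusted p under 0.05), and 74.3% of the higher and 65.7% of the lower genes had the same sign. With all libraries, 84.1% of the higher genes and 72.3% of the lower genes had the same sign, with medians of 0.85 and -0.48. WRKY genes had a median of -1.46 in infested leaves labelled P746, JA genes of -0.57 and SA genes of -1.36, with no call in any of these lists. The lists with clock and CONSTANS-like genes did not keep their mock direction there. B-box genes of the C2C2 class had a median of 0.44, against -1.57 in mock leaves. For MYB_related genes it was 0.01, against -0.80 in mock leaves, and no gene of either list was called. The 4 LOX1 genes called lower in mock leaves changed by -0.51 to 0.34 in infested P203 and by 0.10 to 1.05 in infested Dongnong47. In infested leaves labelled P746 they changed by -1.46 to -0.39, and none of these changes was called.

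The difference of the time step between mock and infested leaves labelled P746 passed the test in 31 genes (0.127%). In 30 of these (0.123%) the change was more negative in mock leaves, and in 1 (0.00409%) more positive. The 30 genes were all called lower there, with a median of -6.0 against 0.60 in infested leaves, and 25 were also called lower in P203 mock leaves. GLYMA08G08800 was among them, and none had a name in the lists used.

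The calls were spread over the genome and over levels. By chromosome the called share ran from 14.7% on chromosome 4 to 18.3% on chromosome 1. In 5 equal classes of mean level, from low to high, it was 17.7%, 19.3%, 15.1%, 13.2% and 16.6%. Higher calls made up 10.7% of the lowest class and 6.91% of the highest, and lower calls 6.95% and 9.71%. Genes called lower had another lower gene next to them in identifier order in 21.6% of cases, against 14.7% of all tested genes, and genes called higher in 19.7%, against 16.4%. The longest runs were 6 higher genes from GLYMA13G11992 to GLYMA13G12004, within the stretch on chromosome 13, and 4 lower genes from GLYMA01G03956 to GLYMA01G04000.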

How the data were processed

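RNA of caged leaf areas was sequenced by the authors (TruSeq libraries, paired-end reads), reads were aligned with HISAT2 to the Glycine_max_v2.1 genome, and loci were assembled and counted with StringTie. The labels' processing notes also name CASAVA 1.8 and Bowtie. The authors deposited estimated counts per gene and library, not normalized. About 22.2% to 23.1% of them in these 6 libraries are not whole, and they were rounded. Use of strand in the counting is not given in the sources used here. Genes absent from a library were taken as 0.

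Genes on chromosomes 1 to 13 were filtered with filterByExpr (minimum count 10, minimum total 15), scaled by TMM and tested with edgeR 4.0.16 (quasi-likelihood, Benjamini-Hochberg over all tested genes), without covariates. Calls needed an adjusted p below 0.05 and a change of 1 or more, in either direction, on the log2 scale. Differences between comparisons were tested as interactions over 12 libraries. Folds against a group without counts use a floor of 3 counts over the group, which covers counting error only. DESeq2 1.42.0 was an alternative, beside other scalings, filters, left-out libraries, a replicate block and a fit of all 54 libraries. R 4.3.3, Python 3.11.15 and matplotlib 3.10.9 were used, and the fits were tested on simulated data. The study describes 3 independent samples per treatment.

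Members and lists were chosen with earlier results of these data known. Named genes were the called members of the JA, SA, callose synthase and catalase lists (or the most abundant member of a group without calls), the 12 higher and 12 lower listed genes with the largest non-overlapping changes, the 2 higher and 2 lower unlisted genes with the largest changes, the clock and CONSTANS-like genes, and up to 4 listed genes for each interaction. Genotype markers were read with a pseudocount of 0.5 CPM and needed 2 CPM or more in all libraries of the higher group. Names came from the study's gene lists, since 0 of 59048 RefSeq genes matched an identifier, and no sequences are shown.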

Additional observations from a re-analysis of the deposited data

Results flagged for a closer look

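The change from 48 to 96 HAI differed between the mock leaves labelled P746 and those of Dongnong47 in 326 genes by the edgeR interaction test, and between mock and infested leaves labelled P746 in 31 genes. Of the 326 genes, 24 are in the lists used, and the 4 of them with the smallest p are given here.

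The CO-like gene GLYMA10G42090 changed by 3.96 in the libraries labelled P746 and by 1.01 in Dongnong47, a difference of 2.97 (edgeR adjusted p = 0.0395). In Dongnong47 it lay at 4.37 to 5.29 CPM at 48 HAI and at 5.14 to 15.5 CPM at 96 HAI, against 1.99 to 3.48 and 41.9 to 49.2 CPM in the libraries labelled P746, on the scale set over 54 libraries. The MYB_related gene GLYMA11G04441 had a difference of 1.60 (edgeR adjusted p = 0.0359), with a change of 0.09 in P746 and -1.49 in Dongnong47, where it went from 105.7 to 134.9 CPM at 48 HAI to 39.0 to 50.5 CPM at 96 HAI. GLYMA11G34930, listed as MYB/HD-like, had a difference of 1.38 (edgeR adjusted p = 0.0395), from changes of 0.51 and -0.86. The MYB gene GLYMA12G11330 had a difference of -9.29 (edgeR adjusted p = 0.0395). Its Dongnong47 libraries held 0 to 0.0814 CPM at 48 HAI and 0.104 to 1.04 CPM at 96 HAI, so that the size of this difference rests on counts near 0. Genes named for other reasons also differed from Dongnong47: the FAD8 gene GLYMA07G18350 by -4.07 (edgeR adjusted p = 0.0417) and the B-box gene GLYMA06G01140 by 2.75 (edgeR adjusted p = 0.0491). GLYMA08G08800 differed between mock and infested leaves labelled P746 by -15.07 (edgeR adjusted p = 0.00101), with a change of 1.35 in infested leaves. In the difference between mock and infested leaves, infestation and the set of assembled loci cannot be told apart. What produced these differences was not tested.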

How the results depend on the processing

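The replicate numbers were not taken as pairs: over 17467 genes, the deviations of same-numbered libraries correlated at -0.29, 0.29 and -0.12. A replicate block in the edgeR fit gave 2247 called genes, 1098 higher and 1149 lower, of which 2205 were called without it, and the differences from Dongnong47 and from infested leaves numbered 1900 and 12. The block gave 6 lower JA genes and 9 lower WRKY genes.

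A single fit of 54 libraries called 1648 genes, 747 higher and 901 lower, and its differences numbered 15 and 296. DESeq2 called 5259 genes (3766 shared) and 46, 2699 and 717 differences from P203, Dongnong47 and infested leaves. Scaling by total counts gave 794 differences from Dongnong47, and a fit of all loci gave 2787 genes and 22 and 61 differences. RLE scaling called 3796 genes and no filter 3712. Without single libraries, the calls ran from 1331 to 3664, higher calls from 733 to 1882, lower calls from 598 to 1782, and differences from P203 from 0 to 1, from Dongnong47 from 0 to 1815 and from infested leaves from 10 to 40. The causes of these shifts were not tested. Of 47 called genes named here, 17 were kept in all 14 alternatives, 26 were lost in the fit of 54 libraries and 13 under the block, and none changed sign. Leaving out the stretch on chromosome 13, an alternative chosen after seeing the data, gave 3790 calls, 2008 higher and 1782 lower. Infested Dongnong47 without 96 HAI replicate 1, also chosen after seeing the data, gave 0 calls against 108. Marker shares averaged 93.1% and 95.1% at 48 and 96 HAI, and 88.8% and 90.0% with a gap of 1 on the log2 scale, and 93.3% at 96 HAI with a minimum of 5 CPM. Depth limits genes near 0 at either time, and changes on chromosomes 14 to 20 were not analysed here.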

Other observations

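The 68 markers between P203 and P746 are also genes of the leaf transcriptome. Of the 54 that were tested between 48 and 96 HAI, 3 were called higher and 12 lower. Over all tested genes, 8.65% were called higher and 7.75% lower. In infested leaves labelled P746, 55.9% to 91.2% of the markers were P203-like at 48 HAI and 72.1% to 94.1% at 96 HAI. At the 67 markers between Dongnong47 and P203, the 6 mock libraries labelled P746 were Dongnong47-like at 2.99% to 7.46%.

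The scale and the makeup of the 6 libraries differed. TMM factors ran from 0.828 in 48 HAI replicate 3 to 1.13 in 96 HAI replicate 3, and the 10 most abundant genes on chromosomes 1 to 13 held 5.09% to 10.02% of the counts. Chromosome 13 held 10.2% of the counts at 48 HAI and 13.1% at 96 HAI. Chi-square per gene was 20.3 between 48 HAI replicates 1 and 2 and 89.3 and 97.2 between these and replicate 3, and it was 80.5 and 84.0 between 96 HAI replicate 1 and the others and 34.5 between replicates 2 and 3.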
